A study of Mus musculus with 6 samples.

Results

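The genes described here encode metabotropic glutamate receptors, and they were chosen by name: the 6 rows of the deposited table called Grm2, Grm3, Grm4, Grm5, Grm7 and Grm8, of 35148 genes in all. Each name matched 1 row, and all 6 passed the filter on low counts. The RNA came from the paraventricular nucleus of the hypothalamus (PVH) of Ruvbl2fl/fl mice, whose Ruvbl2 alleles are flanked by loxP sites in both groups. In 3 samples the PVH had been injected with an adeno-associated virus of serotype 2 carrying GFP (AAV2-GFP), and in the other 3 with one carrying Cre recombinase and GFP (AAV2-Cre-GFP). Tissue was taken 8 weeks after infection. The sources used here do not give the promoter that drives Cre, the age of the animals, or whether the libraries of a group stem from different animals. The p-values below therefore speak only of variation among these libraries, which may be technical. The series description puts the comparison in terms of RUVBL2 and synaptic plasticity.

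Metabotropic glutamate receptors are G protein-coupled receptors that bind glutamate in a large extracellular domain and work as dimers. Group I receptors, such as the product of Grm5, couple to Gq, activate phospholipase C and are mostly postsynaptic, where Homer proteins tether them. Group II (Grm2 and Grm3) and group III (Grm4, Grm7 and Grm8) receptors couple to Gi/o, lower cyclic AMP and commonly sit on nerve terminals, where they restrain transmitter release. In the PVH, glutamatergic input excites the neurosecretory and pre-autonomic neurons, and receptors of this family tune that input.

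Several facts of the libraries touch every value below. Total counts ran from 41890769 to 54702785 per library. The targeted gene did not separate the labels: Ruvbl2 had 8.66 ± 1.27 FPKM in the AAV2-GFP group and 9.38 ± 0.240 FPKM in the AAV2-Cre-GFP group (SD, n = 3; edgeR adjusted p = 0.773). Every direction therefore compares libraries as labelled, and these are called GFP and Cre libraries 1 to 3 from here on. FPKM is the number of fragments scaled to gene length and to the size of the library. Transcripts of other organs were present in some libraries: 10 kidney genes summed to 300.2 and 324 FPKM in Cre libraries 2 and 3 and to at most 32.1 FPKM in the other 4, and 7 testis genes summed to 476 FPKM in GFP library 1 and to at most 2.10 FPKM elsewhere. Smaller amounts of others were seen: 7 skeletal muscle genes summed to 75.9 FPKM in Cre library 3 and to at most 12.2 FPKM elsewhere, and 4 pituitary genes to 24.0 FPKM in GFP library 2 and to at most 2.70 FPKM elsewhere. The ribosomal RNA model CT010467 stood at 2072 to 2219 CPM (counts over the library total) in the GFP and at 7301 to 17633 CPM in the Cre libraries. It was highest in Cre library 1. Neuronal markers were present in every library, and 10 of them summed to between 729 and 756 FPKM in the GFP and between 628 and 694 FPKM in the Cre libraries. Markers of ependyma, the cells lining the ventricle, were higher in every Cre library: the 6 genes, all detected, summed to between 62.0 and 68.8 FPKM in the GFP and between 85.9 and 119 FPKM in the Cre libraries, with a median log2 difference of 0.52 and none past the threshold. The 8 PVH markers were all detected and summed to between 306 and 889 FPKM in the GFP and between 186 and 645 FPKM in the Cre libraries, all 8 with a log2 difference below 0 and none past the threshold. In such bulk tissue, fewer cells of a type and less RNA per cell cannot be told apart.

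None of the 6 receptor genes differed between the groups beyond the spread of the libraries. Grm5, Grm2, Grm4, Grm7 and Grm8 differed by between -22.0% and -7.79% in the Cre libraries, and Grm3 by 13.0%, on the scale of edgeR's fit. Their edgeR adjusted p ran from 0.314 to 0.563, and no receptor gene had an unadjusted p under 0.05. Across all 20865 genes tested, 0.00959% passed an adjusted p of 0.05 (2 genes, both lower) and 17.2% had an unadjusted p under 0.05 (8.11% higher and 9.11% lower). A log2 difference below 0 was found for 5 of the 6 receptor genes and for 51.0% of all genes tested, with medians of -0.24 and -0.0058. DESeq2, which called 8.03% of the genes to which it gave an adjusted p, also called none of the 6, with a smallest adjusted p of 0.141 for Grm5. What did vary was the level of Grm2 and Grm4 from library to library, by 2.39-fold and 2.31-fold between the highest and the lowest.

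Grm2 and Grm3 encode the group II pair and are described first by sequence. Their log2 differences lay on opposite sides of 0, neither past the threshold, and no link between sequence and sign was tested. Printed are the 250 bases upstream of the RefSeq start of each gene (GRCm38.p6, gene strand, 5′ to 3′), with the GC box GGGCGG, searched on both strands (CCGCCC on the other), in capitals. The Grm2 window is chr9:106656110-106656359 on the minus strand and the Grm3 window chr5:9725353-9725602 on the minus strand.
Grm2: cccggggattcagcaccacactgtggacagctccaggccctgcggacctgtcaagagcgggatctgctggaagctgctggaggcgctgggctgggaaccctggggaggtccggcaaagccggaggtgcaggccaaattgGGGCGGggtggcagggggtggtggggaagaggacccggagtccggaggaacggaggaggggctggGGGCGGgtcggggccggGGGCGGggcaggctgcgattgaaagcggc
Grm3: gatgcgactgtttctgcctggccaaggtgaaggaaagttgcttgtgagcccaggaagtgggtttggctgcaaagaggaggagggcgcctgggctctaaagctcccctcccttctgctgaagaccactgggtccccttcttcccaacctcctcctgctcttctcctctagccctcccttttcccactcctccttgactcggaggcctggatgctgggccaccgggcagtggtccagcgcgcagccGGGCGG
The Grm2 window held 3 GC boxes and 16 CpG dinucleotides, and the Grm3 window 1 GC box and 8 CpG. Of 32851 RefSeq windows of the same length, 32.7% held at least 1 such box and 16.7% at least 2, with a median of 6 CpG. Neither window held TATAAA on either strand. These are descriptions of letters and no site of binding was measured. RefSeq windows were matched for 4 of the 6 genes.

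Grm5, the group I receptor gene of the set, had the highest mean level in both groups. It stood at 11.6, 9.90 and 8.09 FPKM in GFP libraries 1 to 3 and at 8.77, 8.84 and 6.91 FPKM in Cre libraries 1 to 3. The groups overlapped, because GFP library 3 lay below Cre libraries 1 and 2, and Cre library 3 was the lowest of all. The means were 9.87 ± 1.77 and 8.17 ± 1.10 FPKM (SD, n = 3). In log2 the Cre group differed by -0.31 ± 0.14 (SE; 95% interval -0.64 to 0.018), a change of -19.3% with bounds of -35.7% and 1.26% (edgeR adjusted p = 0.314). This was the smallest p among the receptor genes, and exact permutation of the FPKM values, two-sided, gave p = 0.3; with 3 libraries a group its floor is 0.1. The difference moved to -0.19 without Cre library 3, to -0.18 without GFP library 1 and to -0.089 with GFP libraries 2 and 3 against Cre library 1. Its counts were the deepest of the set, 4359 to 6035 per library. If each count is an independent fragment, counting error was at most 1.51%, and the source of the remaining spread was not tested. Grm5 is gene model ENSMUSG00000049583, on chromosome 7 from 87584168 to 88130869 (plus strand, GRCm38).

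Grm2, a presynaptic autoreceptor gene of group II, stood at 5.09, 4.56 and 3.93 FPKM in GFP libraries 1 to 3 and at 2.13, 5.05 and 3.64 FPKM in Cre libraries 1 to 3. Cre library 1 was far below every other library, while Cre library 2 was level with the highest GFP library. The means were 4.53 ± 0.578 and 3.60 ± 1.46 FPKM (SD, n = 3), a log2 difference of -0.36 ± 0.28 (SE; 95% interval -1.01 to 0.29; edgeR adjusted p = 0.561; two-sided exact permutation p = 0.4). Without Cre library 1 the log2 difference was -0.073, and without Cre library 2 it was -0.68. With GFP libraries 2 and 3 against Cre library 1, a fit that leaves out the libraries with kidney or testis transcripts, keeps GFP library 2 with its pituitary transcripts and assumes that the lone library varies like the others, it was -1.05 (edgeR adjusted p = 0.00365). That fit called 4.81% of all genes. The gene is gene model ENSMUSG00000023192, on chromosome 9 from 106643095 to 106656080 (minus strand, GRCm38).

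Grm3, the other group II gene, is known for expression in astrocytes as well as neurons. It stood at 4.60, 4.56 and 5.17 FPKM in GFP libraries 1 to 3 and at 5.37, 5.19 and 6.07 FPKM in Cre libraries 1 to 3. In FPKM the groups did not overlap, by the narrow margin between GFP library 3 and Cre library 2; 14.1% of all genes tested were likewise higher in every Cre library. On CPM scaled by TMM, the trimmed-mean normalization of edgeR, they did overlap (22.8% of all genes tested did not): GFP library 3 stood at 18.6 CPM and Cre libraries 1 and 2 at 18.4 CPM. The means were 4.78 ± 0.343 and 5.54 ± 0.464 FPKM (SD, n = 3), a log2 difference of 0.18 ± 0.11 (SE; 95% interval -0.069 to 0.42; edgeR adjusted p = 0.442). Exact permutation of FPKM, two-sided, gave p = 0.1, the smallest it can give. Leaving out 1 library moved the log2 difference between 0.12 and 0.24, and with GFP libraries 2 and 3 against Cre library 1 it was 0.087. Astrocyte markers, 10 of 10 detected, summed to 626 to 646 FPKM in the GFP and to 661 to 727 FPKM in the Cre libraries, with 8 of 10 higher and none past the threshold; their part in the Grm3 values was not tested. Within them S100b had the largest log2 difference (0.46; edgeR adjusted p = 0.0705), while Slc1a2, the main astrocytic glutamate transporter, differed by -0.21. Grm3 is gene model ENSMUSG00000003974, on chromosome 5 from 9485541 to 9725170 (minus strand, GRCm38).

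Grm4, a group III presynaptic receptor gene, stood at 9.25, 7.22 and 5.92 FPKM in GFP libraries 1 to 3 and at 4.01, 7.57 and 6.81 FPKM in Cre libraries 1 to 3. As with Grm2, Cre library 1 was lowest by a wide gap, whereas Cre libraries 2 and 3 both lay inside the range of the GFP libraries. The means were 7.46 ± 1.68 and 6.13 ± 1.87 FPKM (SD, n = 3), a log2 difference of -0.32 ± 0.25 (SE; 95% interval -0.89 to 0.26; edgeR adjusted p = 0.563; two-sided exact permutation p = 0.5). It moved to -0.070 without Cre library 1, to -0.13 without GFP library 1 and to -0.49 without Cre library 2. With GFP libraries 2 and 3 against Cre library 1, a fit with 1 library on the Cre side, it was -0.77. Grm4 is gene model ENSMUSG00000063239, on chromosome 17 from 27422387 to 27513726 (minus strand, GRCm38).

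Grm7 encodes the group III receptor that sits in the presynaptic active zone and responds only to high glutamate. It was the steadiest of the set, with 8.25, 8.46 and 7.33 FPKM in GFP libraries 1 to 3 and 7.47, 8.06 and 7.20 FPKM in Cre libraries 1 to 3. The groups overlapped, and the highest library was 1.17-fold above the lowest. The means were 8.01 ± 0.599 and 7.58 ± 0.436 FPKM (SD, n = 3), a log2 difference of -0.12 ± 0.080 (SE; edgeR adjusted p = 0.503; two-sided exact permutation p = 0.3). The 95% interval, -0.30 to 0.069, is the narrowest among the 6 genes and runs from a change of -18.9% to one of 4.91%. Without Cre library 3 the difference was -0.068. Grm7 is gene model ENSMUSG00000056755, on chromosome 6 from 110645581 to 111566067 (plus strand, GRCm38).

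Grm8, the third group III gene, had the lowest level: 1.70, 1.60 and 1.42 FPKM in GFP libraries 1 to 3 and 1.49, 1.60 and 1.23 FPKM in Cre libraries 1 to 3. Cre library 3 was lowest, and Cre libraries 1 and 2 lay inside the GFP range. The means were 1.57 ± 0.144 and 1.44 ± 0.193 FPKM (SD, n = 3), with a log2 difference of -0.17 ± 0.13 (SE; 95% interval -0.46 to 0.13; edgeR adjusted p = 0.561; two-sided exact permutation p = 0.5). Without Cre library 3 it was -0.049, and with GFP libraries 2 and 3 against Cre library 1 it was -0.071. Its counts, 716 to 855 per library, give a counting error of at most 3.74% if each is an independent fragment. Grm8 is gene model ENSMUSG00000024211, on chromosome 6 from 27275119 to 28134545 (minus strand, GRCm38).

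**Figure D1:**
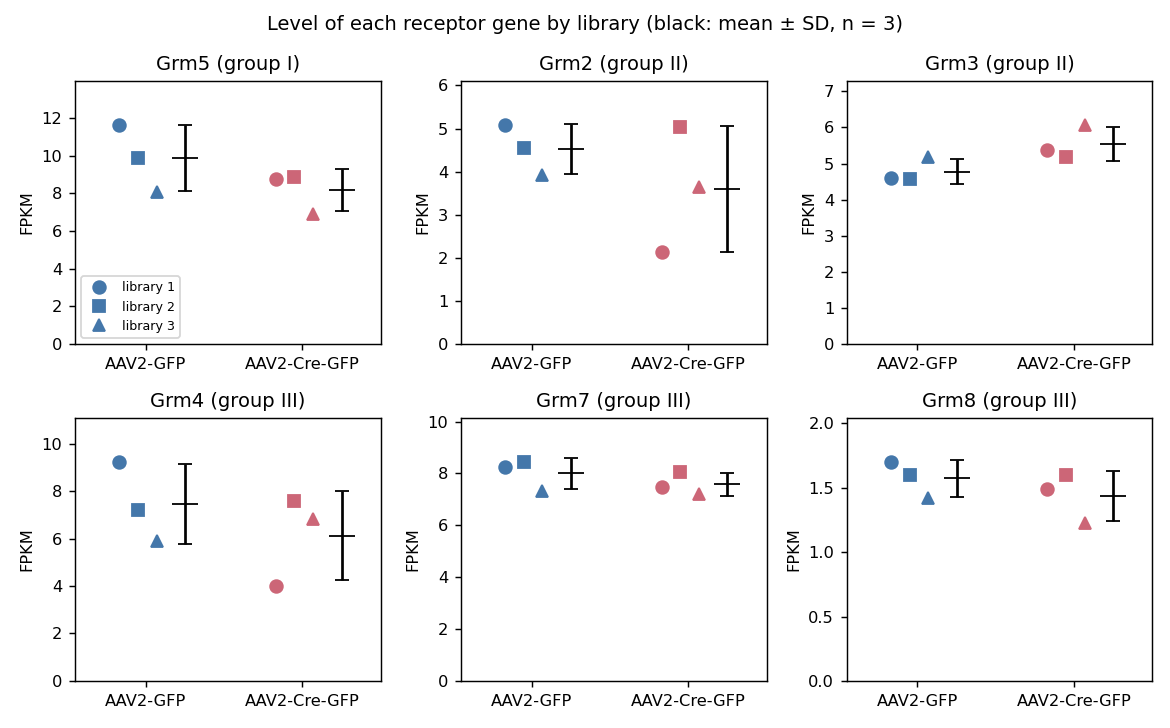
FPKM of each receptor gene (vertical axis, from 0) in the 3 AAV2-GFP and 3 AAV2-Cre-GFP libraries; symbols mark libraries 1 to 3 and black bars the mean ± SD. Grm2 and Grm4 are lowest in Cre library 1, at 2.13 and 4.01 FPKM, and only for Grm3 do the groups not overlap.

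**Figure D2:**
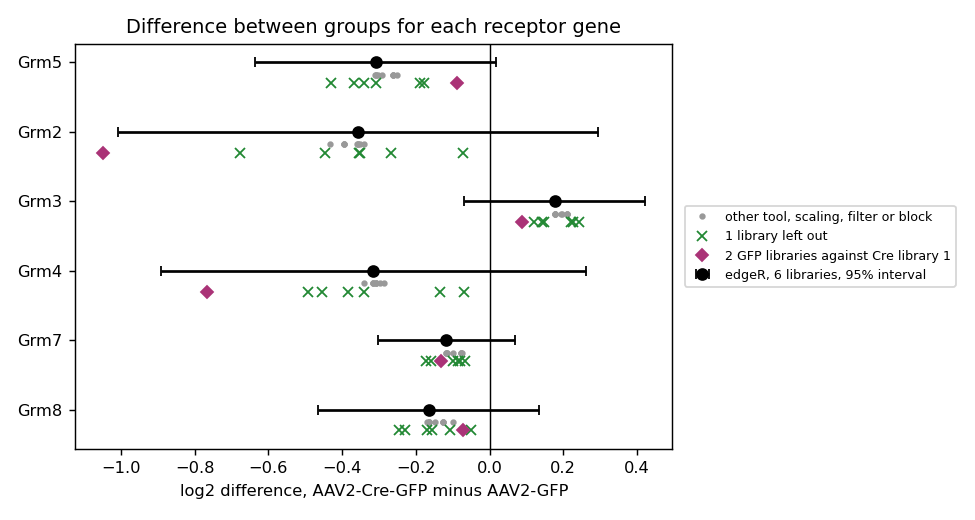
Log2 difference between AAV2-Cre-GFP and AAV2-GFP for each receptor gene with its 95% interval (black), and the values under other settings (grey points), with 1 library left out (crosses) or with GFP libraries 2 and 3 against Cre library 1 (diamonds). Every interval holds 0, and the diamonds of Grm2 and Grm4 lie at -1.05 and -0.77.

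Little of the receptor transcripts' sequence was shared, in the same orientation, with transcripts of other genes in GENCODE M21. The opposite orientation was not searched. The upper end of a receptor gene lay up to 7677 bases further in that annotation than in the deposited table (Grm4). At most 0.663% of the 31-base words in the annotated transcripts of any of the 6 genes occurred in transcripts of another gene, and for Grm2, Grm3 and Grm7 none did. Between 1 and 3 other gene models of the table lie within the span of each receptor gene, on either strand. The most abundant of these, Gm20387 inside Grm7 on the opposite strand, had 311 counts summed over the 6 libraries, against at least 2134 counts of Grm7 in every library.

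Ordered by mean level per length, the receptor genes ran Grm5, Grm7, Grm4, Grm3, Grm2 and Grm8 in both groups. In the GFP libraries Grm4 lay above Grm3 and Grm2 above Grm8 with no overlap, whereas the neighbours Grm5 and Grm7, Grm7 and Grm4, and Grm3 and Grm2 overlapped. In the Cre libraries Grm3 lay above Grm2 and Grm2 above Grm8 with no overlap, and the other neighbours overlapped. Within single libraries, Grm5 lay above Grm7 in 3 of 3 GFP and 2 of 3 Cre libraries, Grm7 standing higher in Cre library 3. Grm7 lay above Grm4 in 2 of 3 GFP and 3 of 3 Cre libraries. Grm3 lay above Grm2 in 2 of 3 GFP libraries, and Grm4 above Grm3 in 2 of 3 Cre libraries. Grm5 stood above 77.3% of all genes tested and Grm8 above 38.5% in mean FPKM over the 6 libraries.

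Summed over the 6 genes, the receptor transcripts came to 40.5, 36.3 and 31.9 FPKM in GFP libraries 1 to 3 and to 29.2, 36.3 and 31.9 FPKM in Cre libraries 1 to 3. Cre library 1 held the least, and the other Cre libraries matched GFP libraries 2 and 3. Shares within a library do not depend on how libraries are scaled to each other. Grm2 made up 12.6%, 12.6% and 12.3% of the sum in the GFP libraries and 7.27%, 13.9% and 11.4% in the Cre libraries. Grm3 made up 11.3%, 12.6% and 16.2% against 18.4%, 14.3% and 19.1%, with Cre library 2 below GFP library 3. The ratio of Grm2 to Grm3, the group II pair, was therefore 1.11, 1.00 and 0.760 in the GFP and 0.396, 0.972 and 0.600 in the Cre libraries, and the groups overlapped. In contrast the ratio of Grm4 to Grm2 kept between 1.50 and 1.88 in all 6 libraries. Such steadiness was not particular to that pair, since the profile distances given below were smaller for Grm7 and Grm8 and for Grm5 and Grm8.

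**Figure D3:**
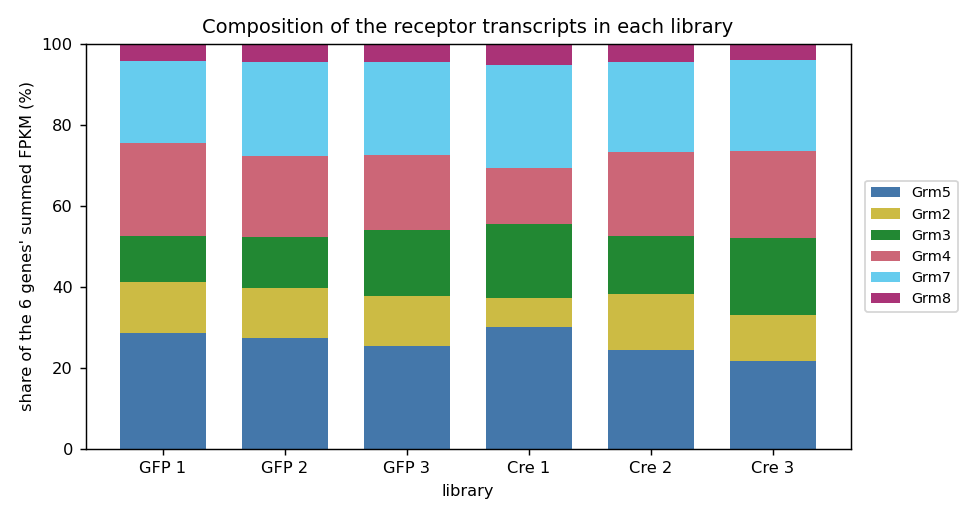
Share of each receptor gene in the summed FPKM of the 6 genes (vertical axis, percent) for each library. The Grm2 and Grm4 shares are smallest in Cre library 1, at 7.27% and 13.7%, where the Grm5, Grm7 and Grm8 shares are largest, at 30.0%, 25.6% and 5.09%.

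The library profiles fell into different shapes. As log2 CPM centred on the mean of the 6 libraries, Grm2 read 0.40, 0.23 and 0.035 in GFP libraries 1 to 3 and -0.92, 0.37 and -0.12 in Cre libraries 1 to 3. Grm4 read 0.50, 0.15 and -0.13, then -0.76, 0.20 and 0.032. Markers of the thalamus, which borders the PVH dissection, had the same low point: the mean of 12 genes read 0.56, 0.25 and -0.22 in the GFP and -0.86, 0.34 and -0.058 in the Cre libraries. Summed, these 12 of 12 detected markers came to between 222 and 292 FPKM in the GFP and between 154 and 257 FPKM in the Cre libraries, all 12 with a log2 difference below 0 and none past the threshold. Tcf7l2, a transcription factor of thalamic neurons, had the largest log2 difference of the list (-0.74). It stood at 15.7, 10.8 and 6.70 FPKM in the GFP and at 3.13, 10.5 and 6.59 FPKM in the Cre libraries. Not every marker was lowest in Cre library 1. Prkcd was lowest in GFP library 3 (3.32 against 3.46 FPKM in Cre library 1) and Cbln1 in Cre library 3 (21.7 against 24.1 FPKM). The part of thalamic tissue in the Grm2 and Grm4 values was not tested. PVH markers had another course, with a mean of 8 genes at -0.25, 0.54 and 0.70 in the GFP and -0.56, -0.50 and 0.070 in the Cre libraries. The low point in Cre library 1 was not particular to the thalamic list. The PVH list (-0.56) and the neuronal list (-0.18) were also lowest there. Other lists were highest in Cre library 1: 9 genes of other hypothalamic nuclei (0.70), the ependymal list (0.52) and the astrocyte list (0.11).

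Grm5 read 0.40, 0.17 and -0.11 in GFP libraries 1 to 3 and -0.065, -0.0080 and -0.38 in Cre libraries 1 to 3. Grm8 had a flatter course of the same shape, highest in GFP library 1 (0.20) and lowest in Cre library 3 (-0.30). The neuronal marker list, by comparison, read 0.071, 0.14 and 0.11 in the GFP and -0.18, -0.041 and -0.096 in the Cre libraries, with 10 of 10 genes below 0 in log2 difference and none past the threshold. All 3 Cre libraries lay below the GFP libraries in the neuronal list, which none of the 6 receptor genes did; the part of neuronal content in their values was not tested.

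**Figure D4:**
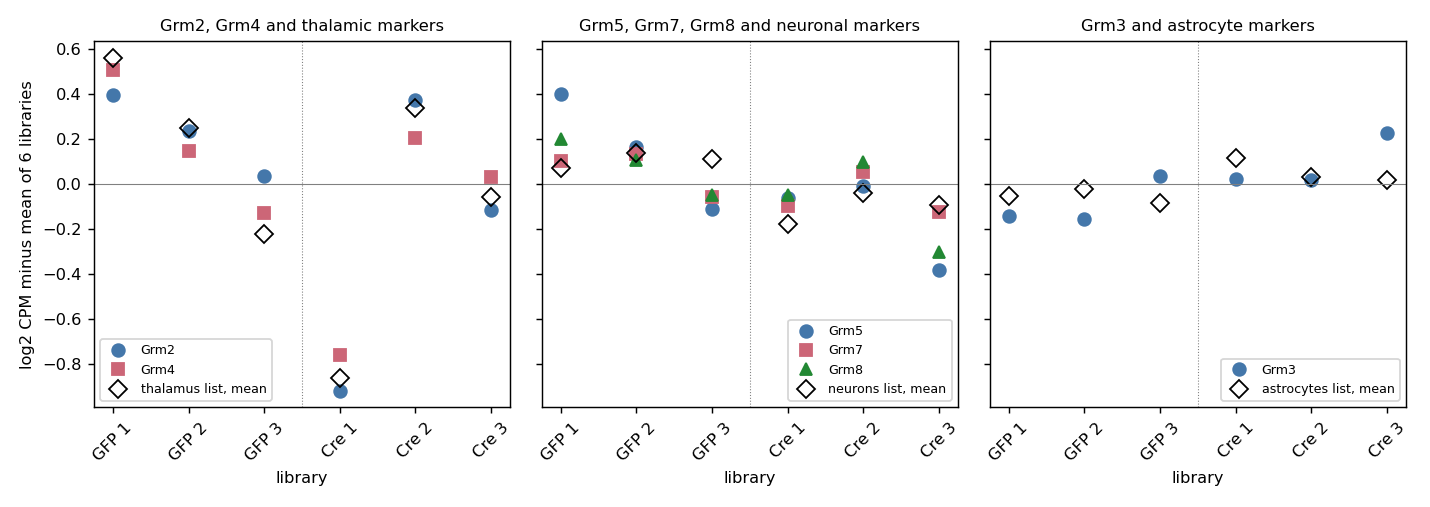
Log2 CPM of each receptor gene minus its mean over the 6 libraries (vertical axis), by library, beside the mean of a marker list (open diamonds) on the same scale. Grm2, Grm4 and the thalamic list share their lowest point in Cre library 1 (-0.92, -0.76 and -0.86), and Grm5 is lowest in Cre library 3 (-0.38). The neuronal list is also lowest in Cre library 1 (-0.18).

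Likeness of profiles was measured over the 6 libraries as the root mean square difference of these centred log2 CPM values, among 20864 other genes. It describes these 6 libraries only. Grm4 ranked 14 in nearness to Grm2 (distance 0.14), and Grm2 ranked 42 in nearness to Grm4. The pairs Grm7 and Grm8 (0.087) and Grm5 and Grm8 (0.10) lay closer together. The nearest to Grm2 were Gm15513, Gm4691 and Otx2, a homeobox transcription factor, at 0.090 to 0.091. Nearest to Grm4 were Gm13307, Derl3, a protein of endoplasmic reticulum degradation, and Zdhhc22, of the palmitoyltransferase family, at 0.072 to 0.073. Grm5 lay closest to Prr7, a proline-rich membrane protein of synapses, Glra3, a glycine receptor subunit, and Ankrd12, at 0.031 to 0.059, and Grm8 ranked 57 for it. The genes nearest to Grm8 were Tafa2, Nt5c3 and Abcd2, a peroxisomal transporter, at 0.029 to 0.036. For the flat profiles, Grm7 was nearest to Akap10, a protein kinase A anchor, Kdm7a, a histone demethylase, and Napg, a vesicle fusion cofactor, at 0.019 to 0.030, and Grm3 was nearest to Tor1b, at 0.028. Of the group II genes, Grm3 ranked 11087 of 20864 in nearness to Grm2, near the middle of the genes. Its distance was 0.51, while Grm2 itself lay 0.45 from a flat profile.

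Downstream of group I receptors, Gq signalling and Homer scaffold genes had log2 differences below 0 in 10 of 13 cases, with a median of -0.11 against -0.0058 for all genes tested. None passed an adjusted p of 0.05. A log2 difference below 0 was found for 51.0% of all genes tested. The counts by sign of this list and of the lists below are to be read against that share. Gnaq, the Gq alpha subunit itself, stood at 34.6, 34.6 and 35.5 FPKM in the GFP and at 32.0, 28.7 and 30.3 FPKM in the Cre libraries, with no overlap (log2 difference -0.24 ± 0.051, SE; edgeR adjusted p = 0.0964). Of all genes tested, 22.9% had FPKM groups that did not overlap, 8.8% with every Cre library lower and 14.1% with every Cre library higher, and the genes without overlap named below are to be read against those shares. Homer2 and Homer3, scaffold proteins that bind group I receptors, lay on opposite sides. Homer2 stood at 3.77 ± 0.354 in the GFP and 2.97 ± 0.108 FPKM in the Cre libraries (SD, n = 3; edgeR adjusted p = 0.0949) and Homer3 at 1.19 ± 0.145 against 1.90 ± 0.299 FPKM (edgeR adjusted p = 0.168), both without overlap. Ncdn, neurochondrin, a protein that binds group I receptors, had the highest level of the list, at 237 ± 33.1 against 194 ± 27.2 FPKM (edgeR adjusted p = 0.265). Among genes of translation and long-term depression (LTD) downstream of group I receptors, 7 of 11 were below 0 (median -0.055). Map1b, a microtubule protein whose message is bound by FMRP, stood at 103, 101 and 96.4 FPKM in the GFP and at 64.6, 74.4 and 74.2 FPKM in the Cre libraries, without overlap (log2 difference -0.53 ± 0.075, SE; edgeR adjusted p = 0.0705). Arc, an activity-induced gene of receptor endocytosis, stood at 4.37 ± 1.58 against 6.49 ± 1.36 FPKM (edgeR adjusted p = 0.350), Cyfip2, a FMRP partner, at 91.5 ± 1.94 against 84.6 ± 6.30 FPKM (edgeR adjusted p = 0.338), and Eef2, the elongation factor with the highest level of the list, at 319 ± 11.7 against 305 ± 21.2 FPKM (edgeR adjusted p = 0.505; SD, n = 3).

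On the side of groups II and III, 8 of 13 genes of Gi/o proteins were below 0 (median -0.098) and none passed. Gng3, a neuronal gamma subunit, stood at 102, 103 and 99.9 FPKM in the GFP and at 68.8, 80.0 and 78.7 FPKM in the Cre libraries, without overlap (log2 difference -0.46 ± 0.074, SE; edgeR adjusted p = 0.0705). Gnb1, a beta subunit, stood at 102 ± 0.997 against 88.7 ± 3.40 FPKM and Gng4, another gamma subunit, at 24.2 ± 2.55 in the GFP and 19.6 ± 1.24 FPKM in the Cre libraries (SD, n = 3; edgeR adjusted p = 0.116 and 0.130). Of the effectors, adenylyl cyclases and GIRK potassium channels, 6 of 11 were below 0 (median -0.021). The cyclase genes differed in sign: Adcy5 and Adcy8 had log2 differences of -0.20 ± 0.056 and -0.31 ± 0.077, and Adcy6 one of 0.24 ± 0.067 (SE; edgeR adjusted p = 0.145, 0.125 and 0.143).

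RGS proteins speed the shut-off of G proteins, and their list also holds Rgs7bp, whose product binds RGS proteins. Genes of this list were below 0 in 10 of 15 cases (median -0.11), none past the threshold. Rgs8 stood at 14.1 ± 0.356 in the GFP and 11.5 ± 0.567 FPKM in the Cre libraries (SD, n = 3; edgeR adjusted p = 0.0705). Rgs4, the member of highest level, read 57.2, 48.2 and 38.0 FPKM in the GFP and 31.7, 51.6 and 44.0 FPKM in the Cre libraries, with its lowest value in Cre library 1, as for Grm2 and Grm4. Rgs6 and Rgs17 had log2 differences of -0.28 ± 0.13 and -0.23 ± 0.085 (SE; edgeR adjusted p = 0.314 and 0.235). Of proteins that bind the receptors' tails or ectodomains, 9 of 11 were below 0 (median -0.097). Elfn2, a postsynaptic adhesion protein that binds group III receptors across the synapse, stood at 21.6, 20.7 and 21.8 FPKM in the GFP and at 19.2, 18.5 and 18.7 FPKM in the Cre libraries, without overlap (log2 difference -0.23 ± 0.049, SE; edgeR adjusted p = 0.0984). Pick1, a PDZ protein that binds the product of Grm7, lay on the other side, at 7.88, 7.36 and 7.27 FPKM in the GFP and at 10.2, 9.16 and 8.31 FPKM in the Cre libraries (edgeR adjusted p = 0.175), also without overlap. Grip1, another PDZ protein, stood at 3.10 ± 0.364 against 2.65 ± 0.303 FPKM, and Calm2, a calmodulin gene, at 395 ± 13.2 in the GFP and 392 ± 18.6 FPKM in the Cre libraries (SD, n = 3; edgeR adjusted p = 0.309 and 0.739). The neuronal markers given above summed lower, and the ependymal markers higher, in every Cre library, and the part of either in these lists was not tested.

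**Figure D5:**
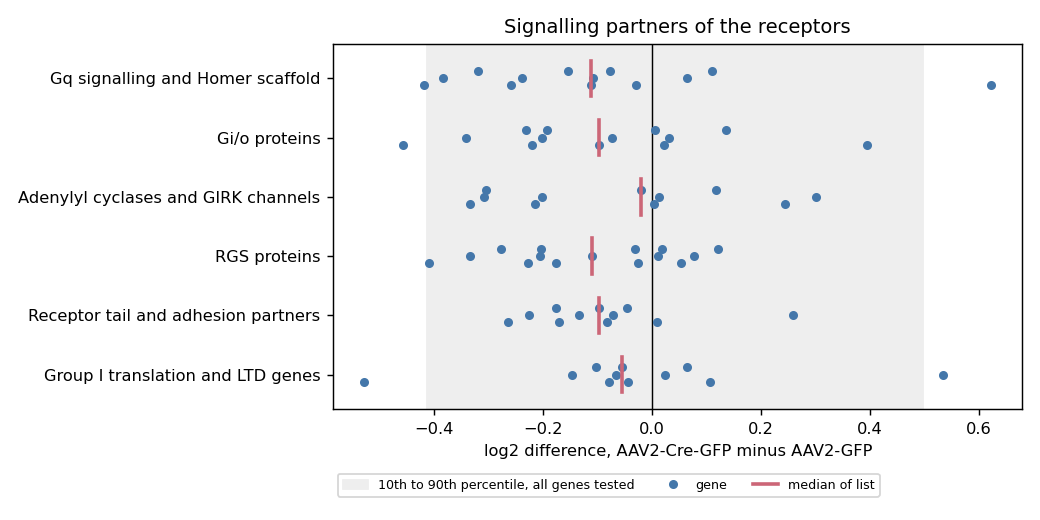
Log2 difference between AAV2-Cre-GFP and AAV2-GFP (horizontal axis) for each tested gene of the 6 lists of signalling partners, with the median of each list (red bars) and the range from the 10th to the 90th percentile of all genes tested (grey). The list medians lie between -0.11 and -0.021, against -0.0058 for all genes tested. The grey range of -0.41 to 0.50 is one of single genes and is no measure for a median.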

How the data were processed

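Poly(A) RNA was made into dUTP-marked libraries with molecular identifiers and sequenced as read pairs, per the labels' protocols. The submitters' processing notes list cutadapt, HISAT2, StringTie and build mm9; whether identifiers or strand were used in counting is not given in the sources used here. Of 35024 gene identifiers shared with GENCODE M21, 91.4% have the same start and end, so coordinates are given as GRCm38. The authors deposited whole-number counts per gene, with no normalization, and FPKM values, scaled by the authors to gene length and library total.

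Groups were compared with the quasi-likelihood test of edgeR 4.0.16 (R 4.3.3) on the counts of all genes, with TMM, filterByExpr at a minimum count of 10, 2 groups of 3 libraries, no covariates, two-sided p and Benjamini-Hochberg adjustment with a threshold of 0.05. The common biological coefficient of variation was 27.1%. The text names the 6 receptor genes, of each signalling list the 3 genes with the smallest p and the one of highest FPKM, and for each receptor gene the 3 nearest by profile (prior count 2; for Grm3 the nearest is given and the others are not reported here); marker lists stand as summed levels, profiles and counts by sign. Tcf7l2, Prkcd, Cbln1, S100b and Slc1a2 were picked with their values in view. The receptor genes and lists were chosen with earlier results of these data known. Alternatives were DESeq2 1.42.0, RLE scaling, no filter, a robust fit, a replicate block, libraries left out, and limma 3.58.1 on log2(FPKM + 0.1) or log2(FPKM + 0.5), which understates changes of low genes. Scripts were tested on simulated data.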

Additional observations from a re-analysis of the deposited data

How the results depend on the processing

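The sign of each of the 6 receptor genes was the same under all 16 alternatives, and none was past the threshold except Grm2 and Grm4 with GFP libraries 2 and 3 against Cre library 1 alone (-1.05 and -0.77), a fit with 1 library on the Cre side. With 1 library left out, the log2 difference ran from -0.68 to -0.073 for Grm2, 0.12 to 0.24 for Grm3, -0.49 to -0.070 for Grm4, -0.43 to -0.18 for Grm5, -0.17 to -0.068 for Grm7 and -0.25 to -0.049 for Grm8. Over all alternatives the adjusted p ran from 0.00365 to 0.889 for Grm2, 0.267 to 0.850 for Grm3, 0.00642 to 0.900 for Grm4, 0.141 to 0.734 for Grm5, 0.365 to 0.796 for Grm7 and 0.490 to 0.906 for Grm8. The number of genes called in the whole table, 2 in edgeR, was 1322 with DESeq2, 9 with RLE scaling, 1 with no filter, 22 with the robust fit, 15 with limma where the mean FPKM had to reach 1, 1059 with GFP libraries 2 and 3 against Cre library 1, and 1 to 296 with 1 library left out, where 296 came without Cre library 1; the cause was not tested. Over 16 alternatives, signalling genes below 0 numbered 8 to 10 of 13 for Gq and Homer and 8 to 11 of 13 for Gi/o. They numbered 5 to 9 of 11 for cyclases and GIRK channels and 8 to 13 of 15 for the RGS list. Tail and adhesion partners gave 7 to 10 of 11, and translation and LTD genes 5 to 7 of 11. Each count stayed within 1.5 times of the main one. The Gq, RGS and tail lists were too short to pass that limit upwards.

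The replicate numbers carry no pairing in the labels, and same-numbered libraries did not deviate together (correlations across genes of -0.044, 0.012 and -0.022). With the replicate block 3 genes passed, none of them a receptor gene, and the log2 differences were -0.43 for Grm2, 0.18 for Grm3, -0.34 for Grm4, -0.30 for Grm5, -0.12 for Grm7 and -0.17 for Grm8; not every library correlated best with its own number. Counting error was at most 4.45% per value for these genes if each count is an independent fragment. It may be larger, since the use of molecular identifiers in counting is not given.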
